A study of Homo sapiens with 15 samples.

Results

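The hnRNP A, B and D genes HNRNPA0, HNRNPA1, HNRNPA2B1, HNRNPA3, HNRNPAB, HNRNPD and HNRNPDL were followed in HEK-293 cells, a human embryonic kidney line, with and without overexpressed GEMIN5. They were found by gene symbol and make up 7 of the 21519 genes in the count table. In the splicing table, 390 of 721551 events carry their names: 80 of HNRNPA1, 96 of HNRNPA2B1, 57 of HNRNPA3, 44 of HNRNPAB, 58 of HNRNPD and 55 of HNRNPDL, with none for HNRNPA0, whose annotated gene is 1 exon. All 7 genes passed the filter on low counts, and 17 of the 390 events had the reads and the range needed for a test in at least 1 comparison.

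GEMIN5 cells had received the plasmid pcDNA3Xpress-Gemin5 with the lipid reagent Lipofectamine LTX and were harvested 24 h later, while control cells were left untreated. GEMIN5 against control is therefore also transfected against untransfected, and the effects of the plasmid's protein and of transfection cannot be told apart. Poly(A) RNA was taken from cytoplasmic lysates (called Input; 3 GEMIN5 and 4 control libraries) and from polysomes, fractions 8 to 12 of 12 of sucrose gradients of cells held in cycloheximide, which stops ribosomes on mRNA (4 GEMIN5 and 4 control libraries). All libraries came from this 1 cell line; per the labels the samples were independent, with nothing said of how cultures were kept apart, so the tests speak only of the spread among them.

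The hnRNP A/B and D proteins are abundant nuclear RNA-binding proteins that carry a pair of RNA recognition motifs and a glycine-rich tail. They coat newly made transcripts, influence which exons are joined, and shuttle to the cytoplasm, where several of them bind AU-rich elements and affect mRNA stability and translation. GEMIN5, the overexpressed protein, belongs to the SMN complex, where it recognises small nuclear RNAs, and it also binds ribosomes.

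The alternative exons that separate the known isoforms of these proteins, and the HNRNPA3 exon junction tested for intron retention, read as follows. Flanking bases of the neighbouring exons are in lower case and the alternative exon is in capitals, from GENCODE v29 transcripts on GRCh38, 5′ to 3′. HNRNPA2B1 exon 2 (36 nt, 12 codons, chr7:26197831-26197866, minus strand) is present in the B1 and absent from the A2 protein; HNRNPD exon 2 (57 nt, 19 codons, chr4:82371528-82371584, minus strand) and HNRNPAB exon 7 (141 nt, 47 codons, chr5:178210132-178210272, plus strand) also keep the reading frame. For HNRNPA3 the bases joined across intron 4 (314 nt, chr2:177216189-177216502, plus strand) are shown, with 3 bases on each side of the junction in capitals.
HNRNPA2B1 exon 2: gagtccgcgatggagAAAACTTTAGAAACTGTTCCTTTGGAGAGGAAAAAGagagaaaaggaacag
HNRNPD exon 2: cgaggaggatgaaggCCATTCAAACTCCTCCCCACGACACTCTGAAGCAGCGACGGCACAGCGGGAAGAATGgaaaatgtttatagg
HNRNPAB exon 7: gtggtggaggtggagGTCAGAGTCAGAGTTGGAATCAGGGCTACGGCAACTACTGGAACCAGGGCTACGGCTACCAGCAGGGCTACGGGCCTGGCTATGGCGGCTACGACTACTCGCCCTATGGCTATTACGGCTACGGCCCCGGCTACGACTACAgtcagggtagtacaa
HNRNPA3 exons 4 and 5: ttgataaaattgTTGTTCagaaataccaca

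Since the members moved together in Input, their start regions were compared (RefSeq windows on GRCh38.p14, 250 bases before to 50 after the start; 7 windows of 6 members, HNRNPA1 having no entry). After the sequences were seen, the letters CACGTG, the same on both strands, were counted. They lie in 4 of the 7 windows, those of HNRNPA3, HNRNPD and HNRNPDL. The windows of HNRNPDL overlap each other, and by gene 3 of the 6 members hold the letters. They also lie in 7.26% of all 35116 windows and 9.2% of the 14660 windows of tested genes. Since the letters were picked from the members' own windows, setting these shares side by side is no test. The bases around each match are given with CACGTG in capitals, at chr2:177212711-177212740 (plus strand, 71 bases before the start) for HNRNPA3, chr4:82374001-82374030 (minus strand, 27 bases before) for HNRNPD, and chr4:82430364-82430393 and chr4:82430572-82430601 (minus strand, 156 and 127 bases before their own starts) for HNRNPDL. HNRNPA3 and HNRNPD share a run of 13 bases here, which 8 of all windows hold. The windows of HNRNPA0, HNRNPAB and HNRNPA2B1 have no such letters. In Input, HNRNPA0 and HNRNPA2B1 fell most of the members and HNRNPDL fell least. A link between the letters and the fall was not tested.
HNRNPA3: cggaaaacgcgtCACGTGacgactggcccc
HNRNPD: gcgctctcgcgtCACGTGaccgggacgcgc
HNRNPDL, downstream start: agaggcccggggCACGTGcagaaaggagcc
HNRNPDL, upstream start: ggagcccgagacCACGTGggcaggaaaagg

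Libraries held 11191417 to 18407933 counts over 14031 to 14851 genes. GEMIN5, the check of the labels, stood at 1319 to 1543 CPM (counts scaled to a common library total after TMM, a correction for RNA composition) in GEMIN5 Input libraries against 12.4 to 15.9 CPM in control Input libraries, and at 647 to 1035 CPM in GEMIN5 polysome libraries against 4.19 to 7.18 CPM in control polysome libraries. The composition of the Input libraries differed: 89 ribosomal protein genes took 55.5 to 60.3% of counts in GEMIN5 Input libraries and 34.3 to 35.5% in control Input libraries, while the members together took 0.0715 to 0.110% of counts in GEMIN5 Input libraries and 0.605 to 0.642% in control Input libraries. Of 7 HEK-293 markers, 6 or 7 had counts in every library. Their summed counts were 4649 to 5973 in GEMIN5 Input libraries and 13363 to 15387 in control Input libraries, and 6623 to 9579 in GEMIN5 polysome libraries and 5881 to 12727 in control polysome libraries. In Input 3 of these markers were called lower in GEMIN5 cells and 0 higher (edgeR; median log2 fold change −0.86), beside 24.3% of all tested genes lower. In polysomes 0 of them were called, beside 0.402% of all tested genes. Summed counts of 10 liver markers were 7 to 46, from 1 to 4 of the markers, in every GEMIN5 library and in control Input replicates 1 and 2, against 1292 to 1885, from all 10, in control Input replicates 3 and 4 and all control polysome libraries. Summed counts of 6 blood markers were 19 to 51 in all GEMIN5 and control Input libraries and 86 to 134 in control polysome libraries. Their part in the results was not tested. HNRNPA1 stood at 2890.5 and 2662 CPM in control Input replicates 1 and 2 and at 2673 and 2552 CPM in replicates 3 and 4.

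Within polysomes, 1 library of each group stood apart from the others for these genes: GEMIN5 polysome replicate 4 and control polysome replicate 1. The members' summed CPM was 2581 in that GEMIN5 library against 4135 to 5392 in the other GEMIN5 polysome libraries, and 2915 in that control library against 6582 to 7065 in the other control polysome libraries. Over 12197 tested genes their mean correlation with their own group was 0.977 and 0.978, against 0.979 to 0.988 for all others. Polysome results are therefore given with and without these libraries, a choice made after seeing the data. The choice rests on the members' own values, so member calls gained without these libraries follow in part from it and are no independent test.

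All 7 genes fell in Input when GEMIN5 was overexpressed, by 1.87-fold for HNRNPDL to 3.48-fold for HNRNPA0. Among all 12197 tested genes, 24.3% were called lower in this comparison (edgeR's quasi-likelihood test, adjusted p under 0.05 over all genes). The members' median log2 fold change was −1.48, beside −0.01 over all tested genes, and 6 of them ranked within the lowest 2.22% to 6.29% of genes, with HNRNPDL at 15.7%. In such bulk lysates, fewer cells of a type and less RNA per cell cannot be told apart. Whether the groups overlap is described for each member below. The share of all tested genes whose Input groups do not overlap was not counted.

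HNRNPA1, a shuttling protein best known for promoting exon skipping, was the most abundant member in Input. It had 852, 813 and 855 CPM in GEMIN5 Input libraries, against 2890.5, 2662, 2673 and 2552 CPM in control Input libraries. The groups were far apart, by −1.68 on the log2 scale (SE 0.24; edgeR adjusted p = 1.1e-05). HNRNPA2B1, whose A2 and B1 proteins bind and transport mRNAs, had 485, 399 and 409 CPM in GEMIN5 Input libraries and 1535, 1517, 1467 and 1371 CPM in control Input libraries. Its change of −1.77 on the log2 scale (SE 0.43; edgeR adjusted p = 0.00181) was about as large as that of HNRNPA1, and again no library of one group reached the range of the other.

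HNRNPA3, a close relative of both, had 192, 182 and 183 CPM in GEMIN5 Input libraries, against 539, 536, 528 and 473 CPM in control Input libraries. All 3 lay far below the lowest control value, at −1.48 on the log2 scale (SE 0.23; edgeR adjusted p = 3.12e-05). HNRNPA0, an intronless member known to bind AU-rich elements, was the least abundant, with 34.5, 27.0 and 27.4 CPM in GEMIN5 Input libraries and 102, 108, 96.4 and 107 CPM in control Input libraries. Its change of −1.80 on the log2 scale (SE 0.28; edgeR adjusted p = 2.73e-05) was the most negative of the 7.

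HNRNPD, known as AUF1 for its binding to AU-rich elements of short-lived mRNAs, had 198, 146 and 150.0 CPM in GEMIN5 Input libraries, against 451, 405, 431 and 411 CPM in control Input libraries. HNRNPAB, a related protein of nucleus and cytoplasm that takes part in mRNA transport, had 210.1, 204 and 212 CPM in GEMIN5 Input libraries and 570.3, 574, 549 and 521 CPM in control Input libraries. In both genes the groups were apart, with HNRNPD more spread than HNRNPAB in GEMIN5 Input libraries. The log2 fold changes were −1.37 for HNRNPD (SE 0.28; edgeR adjusted p = 0.000391) and −1.41 for HNRNPAB (SE 0.14; edgeR adjusted p = 1.52e-07). HNRNPDL, the relative that lies beside HNRNPD on chromosome 4, moved least: it had 276, 248 and 247 CPM in GEMIN5 Input libraries and 484, 537, 467 and 429.7 CPM in control Input libraries. Its groups did not overlap either, at −0.90 on the log2 scale (SE 0.24; edgeR adjusted p = 0.00379).

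The fall in Input was called for every member under each of 23 alternatives of scaling, filter, tool and libraries (161 of 161 results). Those that left out only polysome libraries kept every Input library, so little could change in them. Of all genes, 19.9 to 29.7% were called lower with 1 library left out, 26.8% with RLE scaling and 23.1% with DESeq2. Scaling by library size alone, without the correction for composition, put the median of all genes at −1.29 and that of the members at −2.76, in a fit that called 76.0% of all genes lower. The order of the levels per kilobase of annotated exon, by their means, was the same in both Input groups. In GEMIN5 Input libraries it ran HNRNPA1 (196 ± 5.46 CPM per kb, SD, n = 3), HNRNPAB (112 ± 2.41), HNRNPA2B1 (72.5 ± 7.87), HNRNPD (53.7 ± 9.38), HNRNPDL (48.0 ± 3.12), HNRNPA3 (30.7 ± 0.901) and HNRNPA0 (3.40 ± 0.483). In control Input libraries the values were 629 ± 33.1, 296 ± 13.0, 248 ± 12.3, 139 ± 6.90, 89.6 ± 8.32, 86.0 ± 5.15 and 11.9 ± 0.607 CPM per kb in the same order (SD, n = 4). Neighbours in this order did not overlap, except HNRNPD and HNRNPDL in GEMIN5 Input libraries and HNRNPDL and HNRNPA3 in control Input libraries.

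The order depends on the measure, and the annotated exon length behind it was 1870 nt for HNRNPAB and 5945 nt for HNRNPA2B1. By spliced reads, as the median over a gene's introns in CPM of library totals, HNRNPA1 and HNRNPA2B1 led in both Input groups, HNRNPAB came after HNRNPDL, and the order below HNRNPDL differed between the groups. In GEMIN5 Input libraries the means ran HNRNPA1 (26.6 CPM), HNRNPA2B1 (8.49), HNRNPDL (7.83), HNRNPAB (7.21), HNRNPD (6.01) and HNRNPA3 (3.46). In control Input libraries they ran HNRNPA1 (283 CPM), HNRNPA2B1 (121), HNRNPDL (52.2), HNRNPA3 (46.1), HNRNPAB (44.9) and HNRNPD (43.6). The ranges of neighbours below HNRNPA2B1 overlap in GEMIN5 Input libraries, as do those of HNRNPA2B1 and HNRNPDL there, and in control Input libraries those of HNRNPA3, HNRNPAB and HNRNPD.

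**Figure D1:**
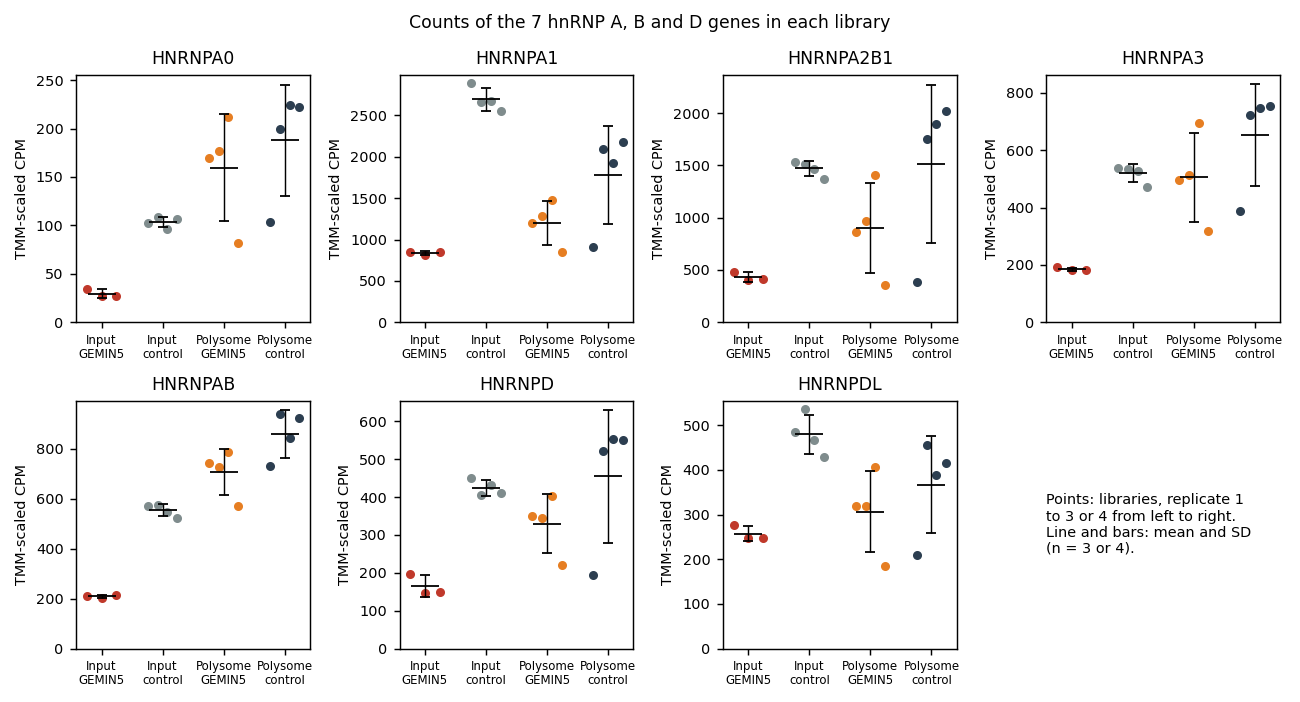
TMM-scaled CPM of each gene in each library (points), with the mean and SD of each group (n = 3 or 4), on linear axes from 0. In Input every GEMIN5 library lies below every control library for all 7 genes, a separation not counted over all tested genes. In polysomes the groups overlap, with GEMIN5 replicate 4 and control replicate 1 the lowest of their groups.

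In polysomes no member was called between GEMIN5 and control cells (0 of 7; 0.402% of all tested genes were called in either direction, and DESeq2 also called 0 members). Before adjustment, 2 members had an edgeR p under 0.05: HNRNPA1 (edgeR adjusted p = 0.651) and HNRNPAB (edgeR adjusted p = 0.786). All 7 point estimates were below 0, from −0.23 for HNRNPA0 to −0.75 for HNRNPA2B1, with a median of −0.37 beside 0.01 over all tested genes.

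HNRNPA2B1 showed the widest spread in polysomes, with 864, 971, 1407 and 358 CPM in GEMIN5 libraries and 386, 1755, 1892 and 2021 CPM in control libraries. Its estimate of −0.75 had an SE of 0.37 (edgeR adjusted p = 0.899), and the groups overlap through the lowest library of each. HNRNPA1 had 1197, 1279, 1483 and 849 CPM in GEMIN5 polysome libraries, against 907, 2091, 1931 and 2181 CPM in control polysome libraries (−0.56, SE 0.21). HNRNPD had 349, 346, 404 and 219 CPM in GEMIN5 polysome libraries, against 193, 521, 554 and 550.1 CPM in control polysome libraries (−0.46, SE 0.24; edgeR adjusted p = 0.925). In these genes control replicate 1 sat among the GEMIN5 libraries or, for HNRNPD, below them, and the other 3 control libraries lay above all 4 GEMIN5 libraries.

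HNRNPA3 had 496, 515, 694 and 316 CPM in GEMIN5 polysome libraries, against 386, 723, 748 and 753 CPM in control polysome libraries (−0.37, SE 0.21). HNRNPAB varied least, with 741, 725, 787 and 572 CPM in GEMIN5 polysome libraries and 729.8, 939.9, 844 and 922 CPM in control polysome libraries (−0.28, SE 0.12). The smallest estimates were those of HNRNPA0 and HNRNPDL. HNRNPA0 had 169, 176, 212 and 81.4 CPM in GEMIN5 polysome libraries, against 104, 199.9, 224 and 223 CPM in control polysome libraries (−0.23, SE 0.24). HNRNPDL had 318, 319, 406 and 184 CPM in GEMIN5 polysome libraries, against 209.6, 455, 387 and 415 CPM in control polysome libraries (−0.26, SE 0.22). The HNRNPDL groups overlap also without their lowest libraries, at 406 CPM in a GEMIN5 library and 387 CPM in a control library.

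Without GEMIN5 polysome replicate 4 and control polysome replicate 1, the estimates moved little but their errors shrank, and 3 members were called lower. Leaving out the library with the lowest member values in each group shrinks the errors by itself, so these calls are descriptions. The members called were HNRNPA2B1 (−0.81, SE 0.17; edgeR adjusted p = 0.0256), HNRNPA1 (−0.65, SE 0.14; edgeR adjusted p = 0.042) and HNRNPD (−0.56, SE 0.13; edgeR adjusted p = 0.0489). That fit called 72 of all genes in either direction and 0.387% of all genes lower. Leaving out control polysome replicate 1 alone gave HNRNPA1 (−0.78; edgeR adjusted p = 0.0287) and HNRNPD (−0.72; edgeR adjusted p = 0.0457), where 0.593% of all genes were called lower.

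The GEMIN5 effect in polysomes was less negative than in Input for all 7 genes, and the difference itself was called for 4: HNRNPA0 (1.56, SE 0.36; edgeR adjusted p = 0.00214), HNRNPAB (1.12, SE 0.18; adjusted p = 0.000106), HNRNPA3 (1.12, SE 0.31; adjusted p = 0.0077) and HNRNPA1 (1.12, SE 0.32; adjusted p = 0.00903). Among all tested genes, 16.9% were called higher in this difference. It was not called for HNRNPA2B1 (1.02, SE 0.55; edgeR adjusted p = 0.159), HNRNPD (0.90, SE 0.36; adjusted p = 0.0584) and HNRNPDL (0.64, SE 0.32; adjusted p = 0.123). The members' median difference was 1.12, beside −0.01 over all tested genes. All 7 were called without the 2 polysome libraries that stood apart, where 20.9% of all genes were called higher, and with library size scaling, where 69.0% were. HNRNPD was also called by DESeq2 (0.99; adjusted p = 0.0156) and, in edgeR, without any of GEMIN5 Input replicates 1 and 2, GEMIN5 polysome replicate 4 or control polysome replicates 1, 3 and 4 (0.65 to 1.06; adjusted p = 0.0175 to 0.0452). HNRNPDL was called without GEMIN5 polysome replicate 4 (0.82; edgeR adjusted p = 0.0173).

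**Figure D2:**
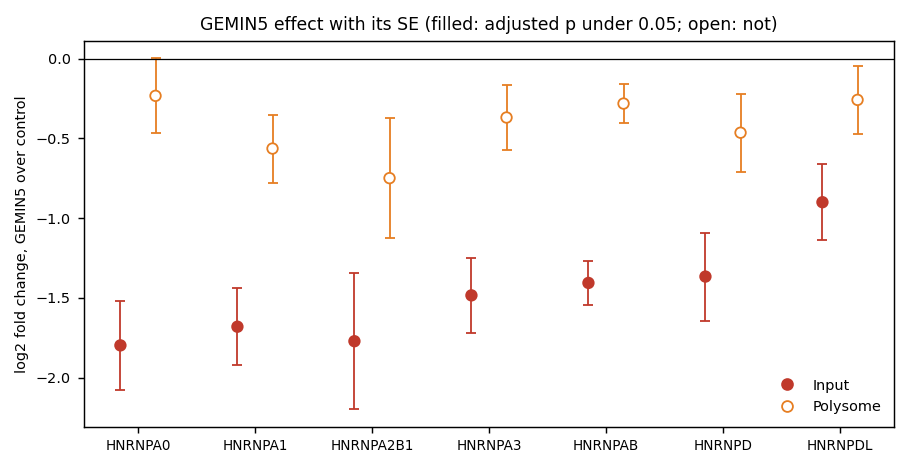
GEMIN5 over control as a log2 fold change with its SE, for each gene in Input (filled, called at an edgeR adjusted p under 0.05) and in polysomes (open, not called). Input estimates run from −1.80 to −0.90 and polysome estimates from −0.75 to −0.23.

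Polysome and Input levels were also compared within each kind of cell; these comparisons share libraries with those above, so their values are given side by side and not as further support. In GEMIN5 cells 5 members were higher in polysomes than in Input, where 32.6% of tested genes were. HNRNPA0 was highest, at 2.42 on the log2 scale (SE 0.29; edgeR adjusted p = 4.94e-07), followed by HNRNPAB (1.76, SE 0.14), HNRNPA3 (1.45, SE 0.23), HNRNPA2B1 (1.06, SE 0.41; adjusted p = 0.03) and HNRNPD (1.00, SE 0.27). HNRNPA1 (0.52, SE 0.23; edgeR adjusted p = 0.0559) and HNRNPDL (0.26, SE 0.23; adjusted p = 0.344) were not called. HNRNPA2B1 lost its call when any of GEMIN5 Input replicates 1 and 3 or GEMIN5 polysome replicates 2 and 3 was left out, at edgeR adjusted p-values of 0.0521 to 0.146, and without the filter on low counts (adjusted p = 0.0782). HNRNPA1 gained it by DESeq2 (0.56; adjusted p = 0.0186), with RLE scaling (0.53; edgeR adjusted p = 0.0415), without the filter (0.62), with only the compared groups (0.63), and without any of GEMIN5 Input replicate 2, GEMIN5 polysome replicate 4 or control polysome replicate 1 (0.52 to 0.65).

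In control cells HNRNPA0 (0.86, SE 0.24; edgeR adjusted p = 0.00668) and HNRNPAB (0.63, SE 0.12; adjusted p = 0.000454) were higher in polysomes than in Input, where 24.1% of tested genes were. HNRNPA1 was lower in polysomes (−0.60, SE 0.21; edgeR adjusted p = 0.0287), as were 19.1% of tested genes, but at −0.08 (adjusted p = 0.775) it was not called with library size scaling, which put the median of all genes at 0.54. Its call was also lost without any of control Input replicates 1, 2 and 3 or control polysome replicate 1, at edgeR adjusted p-values of 0.0522 to 0.067. HNRNPA3 (0.33), HNRNPD (0.10), HNRNPA2B1 (0.04) and HNRNPDL (−0.39) were not called; HNRNPA3 was called higher without control polysome replicate 1 (0.52; edgeR adjusted p = 0.0225). Without the 2 polysome libraries that stood apart, HNRNPA3 (0.52, SE 0.13; edgeR adjusted p = 0.00162) and HNRNPD (0.35, SE 0.12; adjusted p = 0.0202) were higher as well, and HNRNPA1 was lower (−0.38, SE 0.14; adjusted p = 0.022), in a fit that called 28.1% of all genes higher and 22.2% lower.

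HNRNPA0 and HNRNPAB thus had higher values in polysomes than in Input in both kinds of cells. Per kilobase of annotated exon, HNRNPAB headed the order in polysomes, at 378 ± 49.8 CPM per kb in GEMIN5 cells and 459 ± 51.1 CPM per kb in control cells (SD, n = 4 each). HNRNPA1 came next with 281 ± 61.7 CPM per kb in GEMIN5 polysomes and 415 ± 138 CPM per kb in control polysomes. HNRNPA2B1, HNRNPD, HNRNPA3 and HNRNPDL followed in that order, with means of 151, 108, 83.8 and 57.3 CPM per kb in GEMIN5 polysomes and 255, 148, 108 and 68.6 CPM per kb in control polysomes. HNRNPA0 was last at 18.3 ± 6.34 CPM per kb in GEMIN5 polysomes and 21.5 ± 6.55 CPM per kb in control polysomes. The ranges of neighbours overlap in this order except those of HNRNPDL and HNRNPA0. By spliced reads HNRNPAB instead came after HNRNPA1 and HNRNPA2B1 in polysomes, with a mean of 84.0 CPM in GEMIN5 and 98.2 CPM in control libraries. HNRNPA1 had 182 CPM in GEMIN5 and 242 CPM in control libraries, and HNRNPA2B1 106 CPM in GEMIN5 and 175 CPM in control libraries. The ranges of these neighbours overlap as well.

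Read position along the mRNA moved with the Input result. The splicing table holds reads across each exon junction, and 50 of 51 introns of the 6 intron-bearing members had a matching entry. In GEMIN5 Input libraries spliced reads leaned to the 3′ end of each member more than in control Input libraries. As the log2 ratio of the junction nearest the 3′ end over that nearest the 5′ end, HNRNPD had 3.34, 3.37 and 4.13 in GEMIN5 Input libraries, against 1.20, 0.69, 0.93 and 1.09 in control Input libraries. HNRNPA2B1 had 2.36, 2.77 and 2.54 in GEMIN5 Input libraries, against 0.18, 0.00, 0.11 and 0.24 in control Input libraries. HNRNPDL had 1.85, 2.01 and 1.90 in GEMIN5 Input libraries, against −0.13, −0.40, −0.19 and −0.35 in control Input libraries.

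Group means of that ratio were 2.61 ± 0.05 in GEMIN5 and 1.02 ± 0.08 in control Input libraries for HNRNPA3 (SD, n = 3 and 4). HNRNPAB had 1.81 ± 0.41 in GEMIN5 and 0.21 ± 0.14 in control Input libraries, and HNRNPA1 1.36 ± 0.11 in GEMIN5 and 0.23 ± 0.09 in control Input libraries. The median over 1847 genes with enough junction reads moved the same way, at 1.29 ± 0.04 in GEMIN5 and 0.54 ± 0.05 in control Input libraries. None of these Input groups overlap. An exact permutation test (two-sided) gave p = 0.0571 for each of them, which is as low as 3 against 4 libraries can reach (0.114 adjusted over 14 tests). In polysomes the ratios of GEMIN5 and control libraries overlap for all 6 members and for the median over all genes.

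The size of the Input fall differed along each mRNA. In spliced-read CPM, taken over library totals without composition scaling, the log2 ratio of GEMIN5 over control Input libraries for HNRNPA2B1 was −4.30 at intron 2 and −1.91 at intron 10, its 3′-most. The same ratio ran from −4.18 at intron 4 to −1.92 at intron 10 of HNRNPA3, and from −4.05 at intron 1 to −1.56 at intron 8 of HNRNPD. HNRNPAB spanned −3.69 to −1.96, HNRNPA1 −3.44 to −2.29 and HNRNPDL −3.19 to −1.02. At the 3′-most junction every member was below the median of all 1847 genes, −0.75, and all but HNRNPDL lay in the lowest 3.25% to 14.0% of genes (HNRNPDL 34.7%). At the 5′-most junction all 6 lay in the lowest 0.271% to 5.31%, where the median was −1.57. The 3′-most junctions lay from 495 nt (HNRNPA2B1) to 2539 nt (HNRNPA1) from the 3′ end of an annotated transcript of each gene. The ranks were not matched for this distance.

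**Figure D3:**
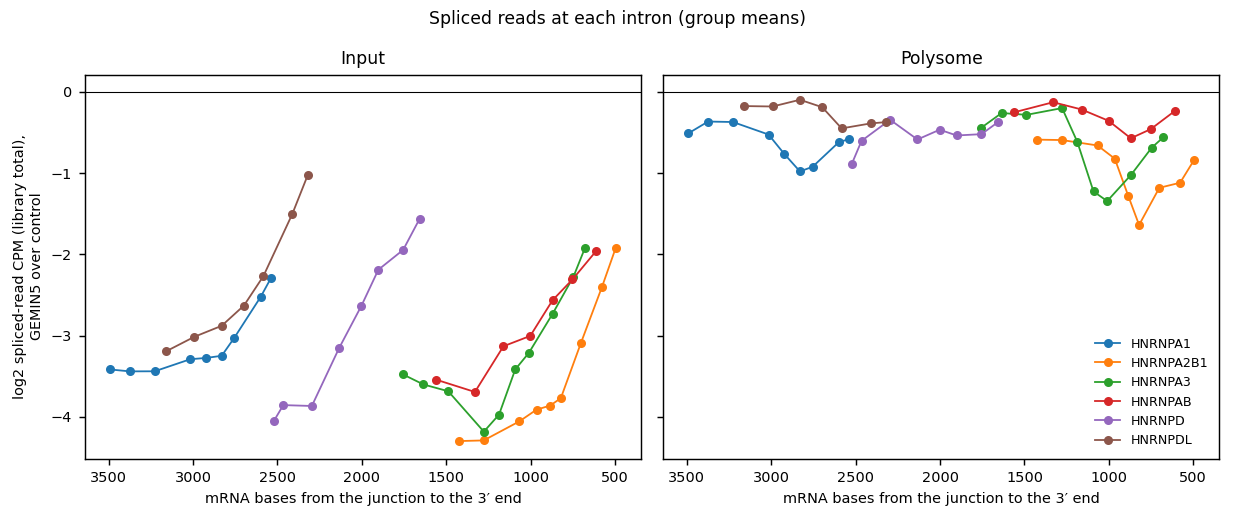
Log2 ratio of spliced-read CPM over library totals (group means, 0.1 added), GEMIN5 over control, at each intron of the 6 intron-bearing members, against the mRNA distance from the junction to the 3′ end. In Input the ratio is nearer 0 towards the 3′ end in every gene. In polysomes it stays between −1.64 and −0.10. Its lowest value there is at an inner intron in every gene but HNRNPD, and most introns of each gene are inner.

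In polysomes the GEMIN5 over control ratio of the junction reads was lowest at an inner intron in 5 of the 6 members. It is described here after it was seen and with no test. Most introns of each member are inner ones, and the share of all genes with their lowest ratio at an inner intron was not counted. On the log2 scale that ratio of HNRNPA2B1 was −0.59 at introns 2 and 3, −1.64 at intron 7 and −0.84 at intron 10. At intron 7 the spliced reads numbered 288, 451, 604 and 235 in GEMIN5 polysome libraries, against 199, 1238, 1969 and 1300 in control polysome libraries. At intron 3 they numbered 1476, 2348, 3211 and 489 in GEMIN5 polysome libraries, against 532, 2928, 4159 and 3149 in control polysome libraries. HNRNPA3 dipped to −1.34 at its intron 7, beside −0.44 at intron 1 and −0.56 at intron 10, and HNRNPA1 to −0.98 at its intron 6, beside −0.51 at intron 1 and −0.58 at intron 9. HNRNPAB had −0.57 at intron 5, beside −0.25 at intron 1 and −0.24 at intron 7. HNRNPDL had −0.45 at intron 5, beside −0.17 at intron 1, −0.39 at intron 6 and −0.37 at intron 7, so it hardly dipped. In HNRNPD the lowest value, −0.88, was at intron 1.

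A log2 ratio of the middle introns over both ends sums this up per library. HNRNPA1 had −0.35, −0.33, −0.28 and −0.21 in GEMIN5 polysome libraries, against −0.22, −0.08, −0.08 and −0.10 in control polysome libraries. HNRNPA2B1 had −0.54, −0.60, −0.46 and −0.27 in GEMIN5 polysome libraries, against −0.38, −0.30, −0.11 and −0.21 in control polysome libraries. HNRNPA3 had −1.52, −1.46, −1.42 and −1.24 in GEMIN5 polysome libraries, against −1.42, −1.11, −0.91 and −1.19 in control polysome libraries. HNRNPAB had 0.72, 0.52, 0.70 and 0.77 in GEMIN5 polysome libraries, against 0.69, 0.97, 0.98 and 0.87 in control polysome libraries. In each of these 4 genes the polysome groups overlap through libraries that stood apart, in HNRNPAB through control replicate 1. The polysome means were 0.68 ± 0.11 in GEMIN5 and 0.87 ± 0.13 in control libraries for HNRNPAB (SD, n = 4 each), and −0.29 ± 0.06 in GEMIN5 and −0.12 ± 0.07 in control libraries for HNRNPA1, so the difference was about as large in HNRNPAB. HNRNPDL had −0.38 ± 0.10 in GEMIN5 and −0.34 ± 0.05 in control polysome libraries, and HNRNPD 0.21 ± 0.03 in GEMIN5 and 0.29 ± 0.08 in control polysome libraries. In Input the ratio of HNRNPA1, HNRNPA2B1 and HNRNPA3 was lower in every GEMIN5 than in every control library, with means of −0.37 ± 0.07 in GEMIN5 and −0.08 ± 0.05 in control libraries for HNRNPA1 (SD, n = 3 and 4). The means were −0.65 ± 0.06 in GEMIN5 and −0.06 ± 0.05 in control Input libraries for HNRNPA2B1, and −1.56 ± 0.05 in GEMIN5 and −0.82 ± 0.05 in control Input libraries for HNRNPA3. The median of all 1449 genes with at least 6 such introns was −0.14 ± 0.01 in GEMIN5 and −0.01 ± 0.02 in control Input libraries, and −0.02 ± 0.01 in GEMIN5 and −0.01 ± 0.02 in control polysome libraries. HNRNPDL was lower in Input too, at −0.67 ± 0.11 in GEMIN5 and −0.35 ± 0.11 in control libraries, while the HNRNPAB groups overlap, at 0.72 ± 0.17 in GEMIN5 and 0.76 ± 0.06 in control Input libraries. HNRNPD went the other way in Input, with 0.33 ± 0.08 in GEMIN5 and 0.10 ± 0.01 in control libraries.

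**Figure D4:**
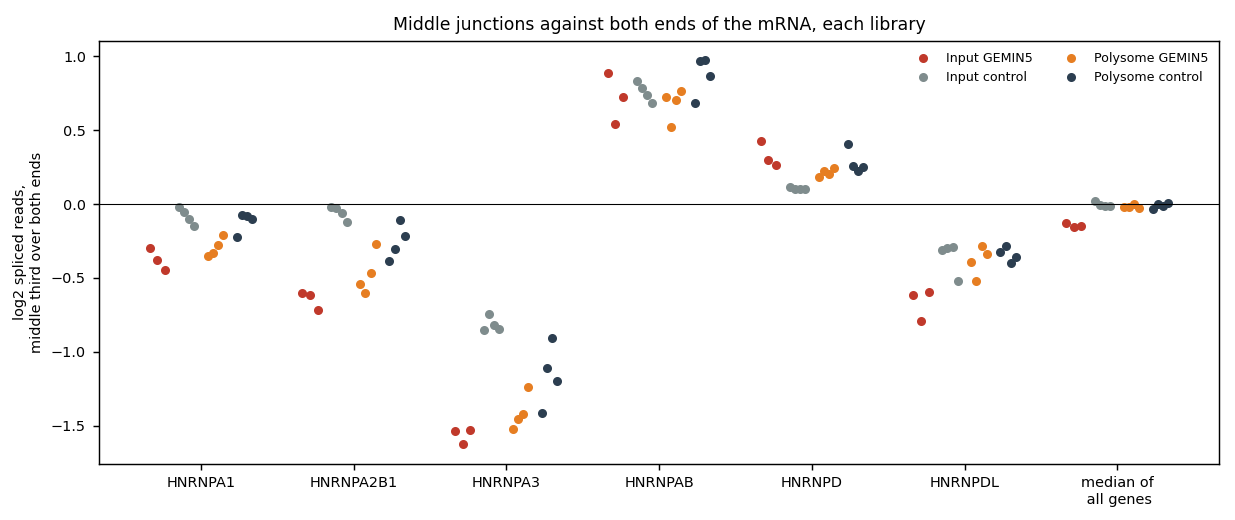
Log2 ratio of spliced reads at the middle introns over the introns at both ends, per library, for the 6 intron-bearing members and for the median of 1449 genes. GEMIN5 Input libraries lie below control Input libraries in HNRNPA1, HNRNPA2B1, HNRNPA3 and HNRNPDL and above them in HNRNPD.

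Splicing of the members was measured as PSI, the percent of reads that include an exon or retain an intron. In Input 1 of 12 tested member events was called, where 4.29% of all 11930 tested events were (limma on log2 odds of inclusion, adjusted p under 0.05). It was the retention of HNRNPA3 intron 4, whose flanking exon bases are printed above. Its PSI was 6.67, 9.58 and 5.53% in GEMIN5 Input libraries, against 0.840, 0.460, 0.570 and 1.16% in control Input libraries. The means were 7.26 ± 2.09% in GEMIN5 and 0.758 ± 0.312% in control Input libraries (SD, n = 3 and 4; limma adjusted p = 0.0116), with no overlap. The values rest on 2.74, 3.95 and 2.72 corrected inclusion reads of 41.1, 41.2 and 49.2 in GEMIN5 Input libraries, against 3.61 to 6.27 of 540.4 to 790.2 in control Input libraries. Most of the difference in read numbers between the groups lay in the spliced reads. The call was lost without GEMIN5 Input replicate 2.

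In GEMIN5 polysomes the PSI of HNRNPA3 intron 4 was 1.27, 1.52, 0.520 and 2.06%, against 1.42, 1.15, 0.630 and 0.740% in control polysomes, a range too low for the filter on PSI. Polysomes against Input in GEMIN5 cells called the same event as 1 of 11, lower in polysomes (1.34 ± 0.64% in polysomes against 7.26 ± 2.09% in Input, SD, n = 4 and 3; limma adjusted p = 0.0352), where 5.0% of all events were called. That call was lost when any GEMIN5 library other than polysome replicate 4 was left out. It uses the same GEMIN5 Input libraries, through which alone the event passed the filter, and is no further support. In polysomes 0 of 16 member events were called between GEMIN5 and control cells, and 0.0% of all 17485 events; between polysomes and Input of control cells 0 of 11 were, and 0.0186% of all events (limma).

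The isoform exons of HNRNPA2B1 and HNRNPAB overlapped between GEMIN5 and control libraries in Input and in polysomes, and neither was called. HNRNPA2B1 exon 2, which makes B1, was included at 16.8, 20.2 and 21.4% in GEMIN5 Input libraries, against 17.9, 20.04, 17.4 and 18.5% in control Input libraries, so the A2 form was the more frequent in each. In polysomes the values were 17.4, 17.8, 19.8 and 15.2% in GEMIN5 libraries and 16.6, 22.3, 18.6 and 18.8% in control libraries. HNRNPAB exon 7 was included at 57.8, 61.1 and 51.0% in GEMIN5 Input libraries and 53.5, 56.9, 57.1 and 43.1% in control Input libraries. Its polysome values, 61.4, 53.0, 58.2 and 53.9% in GEMIN5 and 48.4, 52.8, 65.6 and 58.5% in control libraries, covered the same range.

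HNRNPD exon 2 varied more between libraries of 1 group than between groups. Its PSI was 45.2, 84.1 and 73.2% in GEMIN5 Input libraries, against 61.0, 85.1, 83.3 and 79.4% in control Input libraries. In polysomes it was 91.5, 80.7, 82.3 and 81.4% in GEMIN5 libraries, against 61.4, 83.8, 73.5 and 82.9% in control libraries. Limma adjusted p-values were 0.571 in Input and 0.964 in polysomes. A 132-nt exon of HNRNPD (chr4:82357313-82357444) and its 98-nt exon (chr4:82355304-82355401) were included at 84.2 to 100% and 93.6 to 99.5% over all libraries. Inclusion of HNRNPA1 exon 7B and of HNRNPD exon 7, and the first exons of HNRNPA3, were not analysed here.

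Several genes of this family are known to limit their own level through noncoding exons that lead to nonsense-mediated decay; exons outside the annotated coding sequence were tested here in HNRNPA2B1 and HNRNPDL. A 136-nt exon of HNRNPA2B1 (chr7:26190993-26191128, outside the coding sequence of every GENCODE v29 transcript) had a PSI of 62.0, 43.1 and 25.9% in GEMIN5 Input libraries, against 45.3, 36.2, 27.9 and 45.0% in control Input libraries. In polysomes it had 33.6, 32.9, 39.8 and 36.5% in GEMIN5 libraries, against 17.3, 30.6, 23.1 and 24.9% in control libraries. The polysome groups do not overlap, at 35.7 ± 3.13% in GEMIN5 and 24.0 ± 5.47% in control libraries (SD, n = 4 each), but the difference was not called (limma adjusted p = 0.964) and rests on 29 to 111 reads per library. A 105-nt exon of HNRNPDL (chr4:82425563-82425667) had 2.08, 2.61 and 3.90% in GEMIN5 Input libraries, against 4.15, 5.41, 7.78 and 10.1% in control Input libraries. These ranges do not overlap either, and the difference was not called (limma adjusted p = 0.19). In polysomes the HNRNPDL exon had 4.96, 6.64, 4.08 and 6.53% in GEMIN5 libraries and 8.30, 5.10, 8.88 and 11.3% in control libraries.

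Other tested events were small. HNRNPAB intron 1 (chr5:178204741-178204814) was retained at 7.20 to 11.0% over all libraries. A pair of HNRNPAB acceptors 3 bases apart (exons starting at chr5:178204815 and chr5:178204818) had PSI values of 93.0 to 98.4% and 1.63 to 6.98%. In HNRNPA1, an acceptor at chr12:54283827, 15 nt inside the usual one, had a PSI of 11.0, 0.650, 2.33 and 6.94% in GEMIN5 polysome libraries and 2.41, 1.16, 1.04 and 0.480% in control polysome libraries (limma adjusted p = 0.964). This event rests on 32 to 45 reads in GEMIN5 and 32 to 92 in control polysome libraries. Intron 7, which ends at the usual acceptor, had 1088 to 1768 spliced reads in GEMIN5 polysome libraries. The PSI is thus not a share of all use of the usual acceptor. The donor of HNRNPA1 exon 7B, the exon of its longer isoform, was named after its values were seen. Its annotated donor at chr12:54283234 was used at 89.0, 100, 97.7 and 94.0% in GEMIN5 polysome libraries, against 97.6, 98.8, 100 and 100% in control polysome libraries. A donor at chr12:54283228 took the rest (4.83 ± 4.79% in GEMIN5 and 0.893 ± 1.15% in control polysome libraries, SD, n = 4 each). These groups overlap, and neither event was called (limma adjusted p = 0.964). The GEMIN5 Input libraries had 7 to 12 reads for this choice of donor, too few for the test in Input. The acceptor at chr12:54283827 had the same read numbers there. Its mean PSI of 5.91% also equalled that of the donor at chr12:54283228, so these events may rest on the same reads. Another donor of HNRNPA1, at chr12:54284317, was used at 100% in all 3 GEMIN5 Input libraries and at 94.7 to 100% in control Input libraries.

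**Figure D5:**
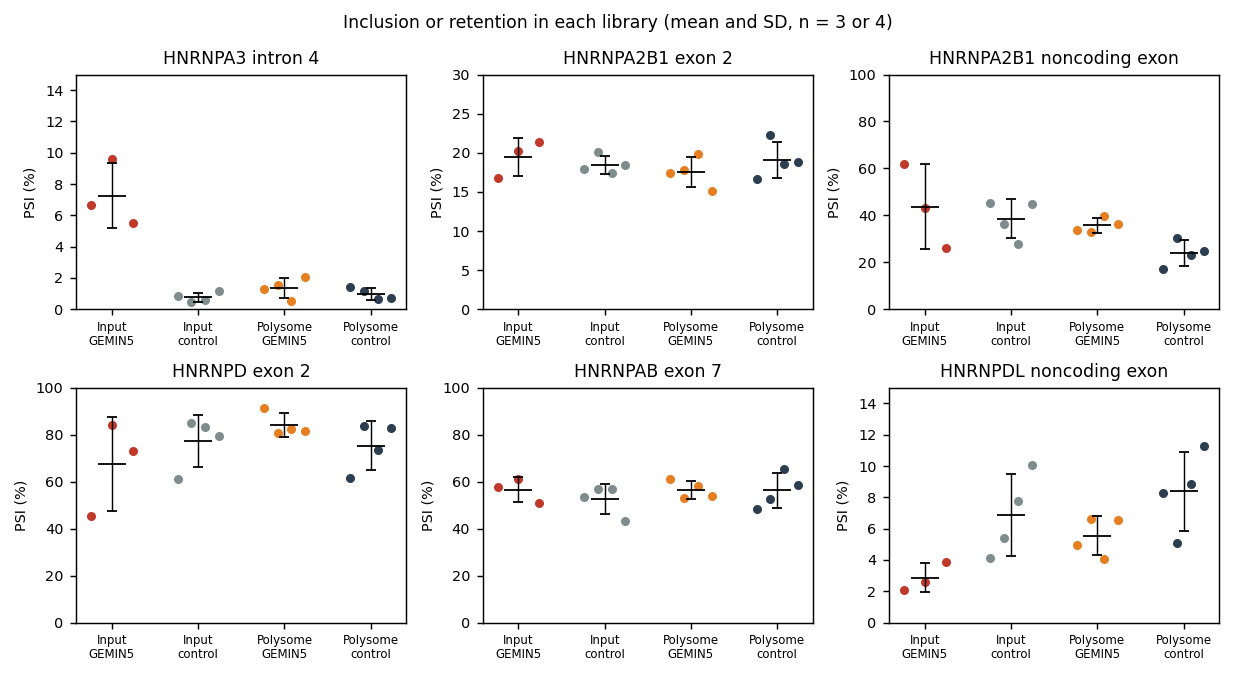
PSI in percent for 6 member events in each library (points), with group means and SD (n = 3 or 4); axis ranges differ between panels and start at 0. HNRNPA3 intron 4 is higher in GEMIN5 Input libraries than in all others, while the isoform exons of HNRNPA2B1, HNRNPD and HNRNPAB overlap between groups.

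The levels of the 7 genes varied together across libraries. Over all 15 libraries, Pearson's r between pairs of members was 0.416 to 0.971, and 0.819 to 0.983 after group means were removed (21 pairs; the libraries share depth and composition, so these are descriptions). All 7 members were lowest of their group in GEMIN5 polysome replicate 4 and control polysome replicate 1, which enter these values. Without these libraries, or for pairs of other genes, r was not computed. HNRNPD followed the members' mean profile most closely (r = 0.986) and HNRNPAB least (r = 0.833). The non-member genes nearest to that profile, by r over 15 libraries, were PCBP2 (0.990), a poly(C)-binding protein, UPF3B (0.981), a factor of nonsense-mediated decay, ST13 (0.979), an HSP70 cochaperone, RBM22 (0.978), a spliceosome protein, and RFC5 (0.977), a subunit of replication factor C.

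Related gene groups were counted in the same fits, where 24.3% of all tested genes were called lower in Input and the median log2 fold change was −0.01. Of 17 tested other hnRNP genes, 15 were lower in GEMIN5 than in control Input libraries and 2 did not pass, with a median log2 fold change of −1.34. HNRNPL, a regulator of exon inclusion, was the lowest of them, with 17.1 ± 7.40 CPM in GEMIN5 and 141 ± 8.89 CPM in control Input libraries (−3.02, SE 0.33; edgeR adjusted p = 4.83e-07). HNRNPR had −1.79, and HNRNPC, the abundant partner of the A and B proteins in core particles, had −1.63. Of 13 SR and TRA2 splicing factors, 9 were lower and 4 did not pass (median −0.75); TRA2A had −1.88 and SRSF6 −1.79, a gene of low counts, while SRSF9 had −0.32 (edgeR adjusted p = 0.081).

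Of 4 close relatives with paired RNA recognition motifs, 3 were lower in Input (median −0.90), among them TARDBP (−1.60), the TDP-43 gene, and DAZAP1 (−1.04). Of 6 tested genes for other AU-rich element binding proteins, 4 were lower (median −0.76), with ZFP36 at −1.40, KHSRP at −1.24 and ELAVL1 at −0.64. ZFP36 is a gene of low counts, at 0.499 CPM in GEMIN5 and 1.36 CPM in control Input libraries. Of 4 genes for nuclear import receptors and arginine methyltransferases that act on these proteins, 2 were lower (median −0.32): TNPO2 (−0.84) and TNPO1 (−0.53; edgeR adjusted p = 0.0462), while PRMT1 had −0.11 (edgeR adjusted p = 0.525). These lists are short to set against the 24.3% of all tested genes lower in Input. No gene of these lists was called higher in Input. None was called in polysomes (edgeR), where 0.402% of all tested genes were.

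Neighbouring and copied sequences limit some values, since the use of strand in counting is not given in the sources used here. HNRNPAB overlaps the antisense gene PHYKPL, which had 39.8 ± 6.78 CPM in GEMIN5 and 18.5 ± 0.58 CPM in control Input libraries and so moved opposite to HNRNPAB (log2 fold change 1.10). HNRNPA2B1 overlaps the antisense genes NFE2L3 and CBX3 at its ends. The HNRNPA1 copies HNRNPA1L2 (3.83 CPM in GEMIN5 and 11.3 CPM in control Input libraries) and HNRNPA1L3 (13.2 CPM in GEMIN5 and 32.9 CPM in control Input libraries) may share reads with HNRNPA1, and adding annotated copies to each member changed no call.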

How the data were processed

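The authors deposited raw counts, whole numbers of RNA-seq reads per Ensembl gene. STAR 2.7.10a and featureCounts, with GRCh38, are named in the submitters' processing notes; for featureCounts, neither version nor options nor strand handling is given in the sources used here. In the deposited table, gene length equals the gene span for all 21519 genes, so reads of introns and overlapping genes may be included. For splicing, the authors deposited PSI as a percent for each event and library. The deposited quality column of that table (unit other, text) holds corrected inclusion and exclusion reads, and all 2330118 PSI values with 10 reads or more lay within 0.5 points of the inclusion share.

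Samples were grouped by their titles. Genes kept by filterByExpr (12197) were scaled by TMM and fitted over 15 libraries together with edgeR 4.0.16 in R 4.3.3 (quasi-likelihood test, group means, Benjamini-Hochberg over all genes, calls at adjusted p under 0.05). Effects are log2 fold changes of GEMIN5 over control or of polysomes over Input. For events, all compared libraries needed 10 corrected reads, the highest PSI had to reach 5 and the lowest to stay at or under 95. Their log2 odds, with 0.5 reads added on each side, were tested with limma 3.58.1 (trend, robust) and adjusted over all tested events. Junction ratios used introns with a mean of at least 10 reads. Both fits were run on simulated data. The changed events simulated there had a higher mean PSI and larger shifts than HNRNPA3 intron 4, so that event is not covered. The precision is set by 11191417 to 18407933 counts per library. Alternatives were RLE and library size scaling, DESeq2 1.42.0, no filter, only the compared groups, added copies, other read minimums, a replicate block and each library left out.

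The named genes are the 7 members, GEMIN5, up to 2 called members with the largest change and the most abundant member of each list, and the 5 genes nearest the members' mean profile. Named events are the called ones, the largest PSI difference per gene and comparison, and the known isoform exons. The members, lists and tests were chosen with earlier results of these data known.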

Additional observations from a re-analysis of the deposited data

Results flagged for a closer look

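The GEMIN5 effect differed between polysomes and Input by the interaction test for HNRNPA0 (1.56 on the log2 scale), HNRNPA1 (1.12), HNRNPA3 (1.12) and HNRNPAB (1.12). The same test called 16.9% of all tested genes higher.

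Of 57 groups of 4 libraries checked, 6 had a library far from the other 3, and chance flags about 1 in 20 groups. Control polysome replicate 1 was far below the others for HNRNPA2B1 (386 CPM), HNRNPA3 (386 CPM) and HNRNPD (193 CPM). Control Input replicate 4 was low for HNRNPA3 (473 CPM). GEMIN5 polysome replicate 1 was high for HNRNPD exon 2 (91.5% PSI), and GEMIN5 polysome replicate 4 for the 3′ over 5′ junction ratio of HNRNPA1 (0.69 on the log2 scale).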

How the results depend on the processing

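The fall of all 7 members in Input held its call in each alternative run (19.9 to 29.7% of all genes lower with 1 library left out). Runs that left out only polysome libraries kept every Input library. In polysomes 0 to 2 members were called with 1 library left out (0.0744 to 0.741% of all genes) and 3 without GEMIN5 polysome replicate 4 and control polysome replicate 1 (0.387% of all genes lower). These 2 libraries were picked by the members' own values, so calls gained without them are no independent test. The difference between the effects was called for 4 to 6 members with 1 library left out (14.0 to 21.7% of all genes higher), for 7 with library size scaling (69.0% of all genes higher) and for 7 without those 2 libraries (20.9%). Without them, 5 members were called between polysomes and Input of control cells, 4 higher (28.1% of all genes) and 1 lower (22.2%). In that comparison 3 uncalled estimates changed sign: HNRNPA2B1 had −0.0245 with RLE scaling, −0.0218 with only the compared groups, −0.0116 with the replicate block, −0.0177 with DESeq2 and −0.13 to 0.36 with 1 library left out, HNRNPD had −0.0133 to 0.35 with 1 library left out, and HNRNPDL had 0.13 with library size scaling. The cause was not tested. Without the filter on PSI, 176 of 213 member events were called in Input (129 of them with a PSI difference of 0), beside 34768 of all 78949 events. In GEMIN5 polysomes against GEMIN5 Input, 163 of 214 were (130 with 0), beside 34675 of all 78402 events. With 1 library left out, 0 to 1 member events were called in each of these comparisons. Of all events, 167 of 11723 to 282 of 11536 were then called in Input. For GEMIN5 polysomes against GEMIN5 Input, 139 of 12008 to 335 of 11677 were. With the replicate block, the event calls in both fell to 0, and the gene calls stayed at 7 in Input, 0 in polysomes, 4 for the difference, and 5 and 3 between polysomes and Input of GEMIN5 and of control cells. Same-numbered libraries correlated at −0.56 to 0.49, so the numbers do not pair them. Of the other results, 741 kept direction and call, 35 gained and 10 lost the call. Depth limits junctions and events most: HNRNPA3 intron 4 rests on under 5 inclusion reads in each GEMIN5 Input library.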
